A study of Mus musculus with 3 samples.

Results

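The genes described here were 36 heat shock proteins, co-chaperones and heat shock factors, listed by symbol and measured in endothelial cells (ECs) of mouse lungs that had received melanoma cells. They were taken by symbol from the 32245 in the files, without a limit on any measured value, although earlier results of these data were known when the list was made. By the compartment in which their proteins work, 26 were cytosolic, 5 belonged to the endoplasmic reticulum (ER), 3 to mitochondria, and 2 were transcription factors. All 36 passed a filter on low genes, which asked that the 3 libraries average 5 CPM or more and which 10175 symbols passed. CPM is the number of UMIs of a gene when all UMIs of the library are scaled to 1000000, and a UMI is a tag that marks 1 captured RNA molecule.

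Chaperones hold unfolded proteins and help them to fold. HSP70 proteins bind short unfolded stretches and are driven by HSP40 proteins of the DnaJ family and by HSP110 proteins, which exchange their nucleotide. HSP90 proteins finish the folding of client proteins such as kinases and steroid receptors, together with co-chaperones. The transcription factor HSF1 is held inactive by chaperones in resting cells and, when unfolded proteins draw the chaperones away, binds heat shock elements in the promoters of cytosolic and mitochondrial chaperone genes. The ER has its own HSP70, HSP90 and DnaJ proteins, which answer mainly to the unfolded protein response through ER stress elements, so the compartments can move apart. In the endothelium, HSP90 is known as a partner of endothelial nitric oxide synthase.

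The 3 libraries, 1 per group, held lung cells of wild-type C57BL/6 mice sorted as Pecam1 positive and Ptprc negative after a warm collagenase digestion. Control mice received PBS through the tail vein and were taken after 6 h. The other groups received 200000 B16-F10 cells, a mouse melanoma line labelled with a tracker dye, by the same route and were taken after 6 h or after 30 h. The cell type label of the 6 h library names melanoma cells besides ECs, and the study's methods have labelled melanoma cells collected without limiting this to 6 h. The labels give 2 mice per treatment and the study's methods 3 pooled mice, and the mice cannot be told apart within a library. Treatment and library preparation cannot be told apart in any comparison, and since no library of PBS mice taken at 30 h was analysed here, treatment and time since injection cannot be told apart between the 30 h and control libraries. With 1 library per group there was no replicate error and no test: every interval below is a 95% interval of counting error only.

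ECs were barcodes with 1000 to 5000 genes, under 20% mitochondrial UMIs and at least 2 UMIs of Pecam1 and Cdh5 together, and numbered 11231 in control, 10583 at 6 h and 9278 at 30 h. Their median depth was 7782, 8033 and 8675.5 UMIs, and 75, 60 and 59 of their barcode sequences, in the same order, occurred in more than 1 library. All 6 endothelial markers were detected in each library. The 7 melanoma markers summed to 1.33 CPM in control ECs, 14.4 CPM at 6 h and 1.13 CPM at 30 h. Red cell and epithelial RNA moved with the libraries as well: haemoglobin genes summed to 3243, 2115 and 827 CPM and epithelial markers to 817, 596 and 364 CPM, in the order control, 6 h and 30 h. The immune list summed to 85.4, 116 and 63.2 CPM in that order. Their part in the differences below was not tested.

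The promoters of the members were searched for the elements of both responses. A heat shock element is built of GAA units that alternate in direction, and the letters searched were GAANNTTC and TTCNNGAA for 2 units, and either of them extended by NN and the next alternating unit for 3 units. Each 3-unit match contains 2-unit matches. The ER stress element was searched as CCAAT and CCACG with 9 free bases between them. Both strands of the 250 bases before each RefSeq start site (build GRCm38.p6) were read, and 31 of the 36 members had such a window. The members without one were Hspa8, Hsp90aa1, Hsp90ab1, Hspa9 and Hsf1. A match is a description of letters, not a shown binding site.

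The following stretches show members with these elements, 5′ to 3′ on the gene's strand, with matches in capitals. Hspa1a and Hspa1b, the stress-inducible HSP70 genes, are shown because of all members their RNA differed most at 6 h, and their 250 bases differed at 3 positions. The capitals in both mark a 2-unit heat shock element 104 bases before the start, at chr17:34972157-34972406 for Hspa1a and chr17:34959239-34959488 for Hspa1b, minus strand.
Hspa1a: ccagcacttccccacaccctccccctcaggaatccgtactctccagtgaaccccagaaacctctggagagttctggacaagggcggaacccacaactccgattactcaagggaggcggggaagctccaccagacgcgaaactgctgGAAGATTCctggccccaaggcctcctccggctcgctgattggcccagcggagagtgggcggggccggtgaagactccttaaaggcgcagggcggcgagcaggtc
Hspa1b: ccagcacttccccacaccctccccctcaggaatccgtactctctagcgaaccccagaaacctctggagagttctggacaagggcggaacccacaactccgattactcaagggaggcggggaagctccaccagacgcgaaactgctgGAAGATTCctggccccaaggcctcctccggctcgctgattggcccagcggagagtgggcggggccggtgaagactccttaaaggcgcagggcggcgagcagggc

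Hsph1, Hspb1 and the mitochondrial pair Hspd1 and Hspe1 are shown for heat shock elements outside the HSP70 genes. Hspd1 and Hspe1 lie head to head on chromosome 1, and the same 30 bases, read here on the Hspe1 strand, hold 3 2-unit matches, which run together into 2 overlapping 3-unit matches. Hsph1 is at chr5:149636351-149636380 (minus strand), Hspb1 at chr5:135887669-135887918 (plus strand) and Hspe1 at chr1:55088053-55088082 (plus strand). For Hsph1 and Hspe1 only 30 bases are given, because the match lies inside an annotated exon.
Hsph1: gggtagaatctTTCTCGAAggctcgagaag
Hspb1: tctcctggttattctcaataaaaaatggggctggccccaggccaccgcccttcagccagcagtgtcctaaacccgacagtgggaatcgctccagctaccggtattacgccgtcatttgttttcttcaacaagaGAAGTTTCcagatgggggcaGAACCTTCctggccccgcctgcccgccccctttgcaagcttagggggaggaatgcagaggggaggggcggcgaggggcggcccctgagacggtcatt
Hspe1: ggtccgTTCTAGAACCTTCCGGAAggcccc

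Hspa5 and Hsp90b1, the HSP70 and HSP90 of the ER, are shown for their ER stress elements. Hspa5 had 1 match at chr2:34772020-34772048 (plus strand), inside an annotated exon, and Hsp90b1 had 2 on opposite strands at chr10:86705510-86705694 (minus strand).
Hspa5: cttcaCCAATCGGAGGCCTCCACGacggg
Hsp90b1: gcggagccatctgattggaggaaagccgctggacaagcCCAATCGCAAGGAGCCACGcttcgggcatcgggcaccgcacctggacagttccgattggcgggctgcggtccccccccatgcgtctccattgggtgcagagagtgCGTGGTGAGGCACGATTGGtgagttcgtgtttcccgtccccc

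At 6 h after the injection, RNA of most cytosolic members and of the mitochondrial pair Hspd1 and Hspe1 was higher than in control. Most ER chaperones differed little. A difference was counted where the log2 ratio of CPM was at least 0.5. At 6 h against control, 19 of the 36 members were higher by this rule, beside 2.93% of all genes passing the filter. None was lower, beside 2.18% of all genes. The 19 were 16 of 26 cytosolic members, 1 of 5 ER members and 2 of 3 mitochondrial members.

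The inducible HSP70 genes and Hsph1 stood at the head of the list. Hspa1b was at 17.2 CPM in control, 111 CPM at 6 h and 10.4 CPM at 30 h. Hspa1a was at 18.1, 91.5 and 13.3 CPM. Their log2 ratios at 6 h against control were 2.69 (2.61 to 2.77) for Hspa1b and 2.34 (2.26 to 2.42) for Hspa1a, which ranked 3 and 6 among the 10175 genes. Hsph1, an HSP110 protein that recharges HSP70, was at 12.9, 56.4 and 20.9 CPM and ranked 7 with a log2 ratio of 2.12 (2.03 to 2.22). For all 3 genes the 6 h library was the highest. Empty droplets, barcodes of 10 to 100 UMIs that hold free RNA, held 17.1 CPM of Hspa1b in control, 193 CPM at 6 h and 10.2 CPM at 30 h, so RNA outside cells moved in the same direction, and its part in the EC values was not tested.

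Hspa1a (chromosome 17, 34969190 to 34972156, minus strand) and Hspa1b (chromosome 17, 34956436 to 34959238, minus strand) are near-identical copies, so reads can be split between them. Their coding sequences were identical at 99.6% of 1923 aligned bases in GENCODE M21. After the coding sequence they were not alike: no window of 90 bases of Hspa1a occurred there in Hspa1b. The sum of both, which does not depend on the split, was 35.3 CPM in control, 202 CPM at 6 h and 23.7 CPM at 30 h, a log2 ratio at 6 h of 2.52 (2.47 to 2.57).

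The constitutive chaperones were higher as well, by less. Hspa8, the HSP70 that all cells use for routine folding, was at 754 CPM in control, 1573 CPM at 6 h and 962 CPM at 30 h. Hsp90ab1, the constitutive HSP90, was at 1056, 2163 and 1279.5 CPM, and Hsp90aa1, the inducible one, at 199, 434 and 198 CPM. The log2 ratios at 6 h were 1.06 (1.05 to 1.07), 1.03 (1.02 to 1.05) and 1.13 (1.10 to 1.15). At 30 h Hsp90aa1 was back at its control level, with a log2 ratio against control of -0.01 (-0.04 to 0.02), while Hspa8 and Hsp90ab1 stayed above it by 0.35 (0.34 to 0.37) and 0.28 (0.26 to 0.29). Among the remaining relatives, Hspa2 had a log2 ratio of 0.54 (0.38 to 0.69) and Hspa4l, an HSP110 relative, of 0.54 (0.48 to 0.60), and Hspa4 stayed at 114, 127 and 119 CPM.

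All 5 HSP90 co-chaperones among the members passed the fold at 6 h. Stip1, which bridges HSP70 and HSP90, was at 38.5 CPM in control, 81.0 CPM at 6 h and 47.1 CPM at 30 h, and its log2 ratio at 6 h was 1.07 (1.01 to 1.13). Cacybp was at 81.4, 152 and 98.7 CPM, with 0.90 (0.86 to 0.94). Fkbp4, an immunophilin of steroid receptor complexes, was at 55.8, 101 and 69.1 CPM, with 0.85 (0.80 to 0.90). Ahsa1, which speeds the HSP90 ATPase, had a log2 ratio of 0.74 (0.68 to 0.80) and Chordc1 of 0.61 (0.56 to 0.66). In each of the 5 the 30 h library lay between control and 6 h, at log2 ratios of 0.17 to 0.31 above control.

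The HSP40 proteins were split. Dnaja1, a main partner of Hspa8, was at 405 CPM in control, 765 CPM at 6 h and 486 CPM at 30 h, with a log2 ratio at 6 h of 0.92 (0.90 to 0.94). Dnajb1, the classical heat-inducible HSP40, was at 56.0, 88.8 and 47.2 CPM, with 0.66 (0.61 to 0.72). The other 6 stayed under the fold: Dnajb2 at 0.36, Dnaja4 at 0.28, Dnajb5 at 0.15, Dnaja2 at 0.14, Dnajb6 at 0.13 and Dnajb4 at -0.22. Thus 2 of 8 cytosolic HSP40 members passed, beside 2.93% of all genes. All 4 HSP70, 2 of 3 HSP110, both HSP90 and all 5 HSP90 co-chaperone members passed. Of these, Hspa2 fell to 0.48 when 1 CPM was added, and Hspa4l to 0.45 when cells were thinned to 2000 UMIs. The difference between families was not tested.

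Small heat shock proteins and BAG proteins did not move as a group. Hspb1, a holdase that keeps unfolded proteins soluble, was at 227 CPM in control, 382 CPM at 6 h and 304 CPM at 30 h, with a log2 ratio at 6 h of 0.75 (0.73 to 0.78). Hspb8, which works with Bag3 in the removal of damaged proteins by autophagy, was at 26.3, 19.6 and 9.11 CPM, lower at 6 h than in control and lowest at 30 h. Bag3 itself was at 110.3 CPM in control and 116 CPM at 6 h, a log2 ratio of 0.07 (0.03 to 0.11), and at 71.0 CPM at 30 h. Bag1, a nucleotide exchange factor of HSP70, was at 126, 147 and 129.8 CPM.

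Of the ER members, Hspa5 passed the fold at 6 h and the other 4 did not. Hspa5, also known as BiP, holds unfolded proteins in the ER and keeps the stress sensors there inactive. It was at 198 CPM in control, 329.5 CPM at 6 h and 316 CPM at 30 h, with log2 ratios against control of 0.73 (0.71 to 0.76) and 0.67 (0.65 to 0.70). The others had log2 ratios at 6 h of 0.27 for Hsp90b1, 0.19 for Dnajb11, 0.08 for Dnajb9 and 0.08 for Dnajc3. The last 3 are DnaJ partners of Hspa5.

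In mitochondria, the folding chamber was higher and the import motor little so. Hspd1 and Hspe1 form the chamber and its lid, the chaperonins HSP60 and HSP10. Hspd1 was at 88.2 CPM in control, 145 CPM at 6 h and 116 CPM at 30 h, with a log2 ratio at 6 h of 0.72 (0.68 to 0.76). Hspe1 was at 89.3, 164 and 123 CPM, with 0.88 (0.84 to 0.92). Hspa9, the mitochondrial HSP70 that pulls proteins through the import channel, was at 68.2, 80.2 and 62.1 CPM, with 0.24 (0.19 to 0.29). The 2 genes of the shared promoter thus stood close together at 6 h and also at 30 h, where their log2 ratios against control were 0.40 and 0.46. GENCODE gives the 2 genes an overlap on opposite strands, and the strand setting of the counting is not given in the sources used here.

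Neither heat shock factor passed the fold at 6 h. Hsf1 was at 20.8 CPM in control, 25.9 CPM at 6 h and 22.2 CPM at 30 h. Hsf2, a relative of Hsf1 known from development, was at 19.6, 17.1 and 13.2 CPM. HSF1 is controlled mainly through its protein, which RNA counts do not measure.

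**Figure D1:**
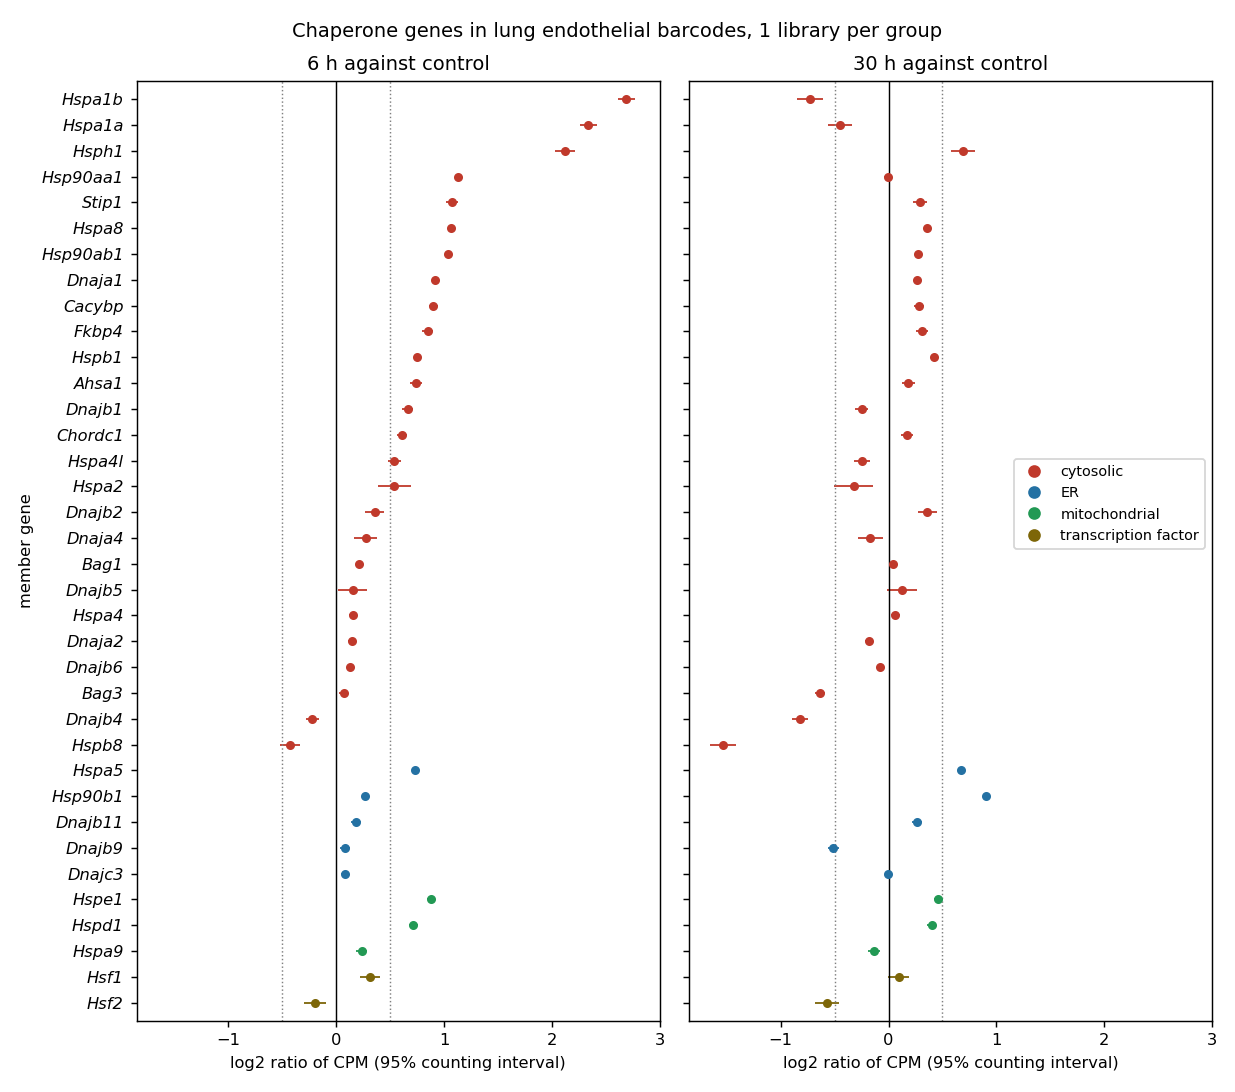
Log2 ratio of CPM (horizontal axis) of each of the 36 members (vertical axis) at 6 h and at 30 h against control, with points coloured by compartment, bars as 95% counting intervals and dotted lines at -0.5 and 0.5. Hspa1b, Hspa1a and Hsph1 lie furthest right at 6 h (2.69, 2.34 and 2.12), and at 30 h Hspb8 lies furthest left (-1.53) and the ER genes Hsp90b1 and Hspa5 near the right edge of the points (0.90 and 0.67).

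At 30 h 1 of the 26 cytosolic members was higher than control by the fold and 4 were lower, and 2 of the 5 ER members were higher. Without regard to the fold, 14 of the 26 cytosolic members lay above control. Higher by the fold were 3 of the 36 members, Hsp90b1, Hsph1 and Hspa5, beside 6.43% of all genes. Lower were 6 of the 36, Hspb8, Dnajb4, Hspa1b, Bag3, Hsf2 and Dnajb9, beside 8.3% of all genes. As shares of the members these were 8.33% and 16.7%. The first lies near its background, so the count of higher members is no result about them, and the second lies above its background but rests on 6 genes.

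Hsp90b1, also known as GRP94, was at 313 CPM in control, 377 CPM at 6 h and 584 CPM at 30 h, so it differed more at the later time. Its log2 ratio at 30 h against control was 0.90 (0.88 to 0.92), the highest of the 36. Over all ECs Hsph1 was still above control with 0.69 (0.58 to 0.80), and its ratio differed between classes, as given below. Dnajb9, an ER DnaJ protein that represses the stress sensor IRE1, went the other way from Hsp90b1, at 86.0, 90.9 and 60.3 CPM in control, the 6 h and the 30 h library. Its ratio to control on the log2 scale was then -0.51 (-0.56 to -0.46). Dnajb11 stood at 0.27 (0.22 to 0.31), and Dnajc3 did not differ beyond its counting interval.

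Hspb8 was the member with the lowest ratio at 30 h, -1.53 (-1.65 to -1.41), and ranked 37 from the low end of all 10175 genes. Its partner Bag3 had a log2 ratio of -0.64 (-0.68 to -0.59). Dnajb4, a DnaJ protein that was not higher at 6 h either, was at 48.6 CPM in control, 41.7 CPM at 6 h and 27.5 CPM at 30 h, a log2 ratio of -0.82 (-0.90 to -0.75). Hspa1b was at -0.73 (-0.85 to -0.60), and at -0.42 without barcodes holding markers of other cell types. That setting kept 3108 of 11231 control cells and 5585 of 9278 cells at 30 h. With the epithelial list left out it kept 9391 and 7444, and Hspa1b stayed past the fold. In empty droplets its ratio was -0.74 (-1.70 to 0.28), and the part of free RNA in the EC value was not tested. Hsf2 was at -0.57 (-0.68 to -0.46), and at -0.50, just under the fold, when ratios were centred on the median of all genes. Dnajb9 likewise left the fold under 5 settings. Of the 6 genes below control at 30 h, Hspa1b alone had been higher by the fold at 6 h.

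Against the 6 h library, the 30 h library was lower in 18 of the 36 members, beside 7.35% of all genes. It was higher in 1, Hsp90b1, beside 7.05%. Of the 18, 17 were cytosolic and the other was Dnajb9. The log2 ratios ran from -3.41 (-3.52 to -3.31) for Hspa1b and -2.79 (-2.88 to -2.69) for Hspa1a over -1.43 for Hsph1, -1.13 for Hsp90aa1, -1.10 for Hspb8 and -0.91 for Dnajb1 to 0.63 (0.61 to 0.65) for Hsp90b1. This comparison shares a library with each of the others, so its values are not separate evidence.

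The compartments were then set against each other. The median log2 ratio of the cytosolic members was 0.64 at 6 h against control, 0.05 at 30 h against control and -0.64 at 30 h against 6 h. The ER members had medians of 0.19, 0.27 and -0.06, and the mitochondrial members of 0.72, 0.40 and -0.37, in the same order. The medians of all genes were -0.01, -0.07 and -0.07. The ranges overlapped, since ER values at 6 h ran from 0.08 to 0.73 and cytosolic values from -0.43 to 2.69. The medians over 5 and 3 genes carry little weight, and genes are not replicates.

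As shares of all UMIs, the cytosolic members together took 3861 CPM in control, 7089 CPM at 6 h and 4394 CPM at 30 h. The ER members took 873, 1096 and 1254 CPM, so over all ECs the ER sum was highest at 30 h and the cytosolic sum at 6 h. In vein and lymphatic cells the ER sum was instead highest at 6 h, with 1359 CPM at 6 h and 1193 CPM at 30 h in vein and 2522 and 1109 CPM in lymphatic cells. The mitochondrial members took 246, 389.7 and 301 CPM. The log2 ratio at 6 h against control was 0.88 (0.87 to 0.88) for the cytosolic, 0.33 (0.31 to 0.34) for the ER and 0.67 (0.64 to 0.69) for the mitochondrial sum, and at 30 h it was 0.19, 0.52 and 0.29. The position of the ER sum above its 6 h level at 30 h came from Hsp90b1: without that gene the ER sum was at 719 CPM at 6 h and 669 CPM at 30 h.

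**Figure D2:**
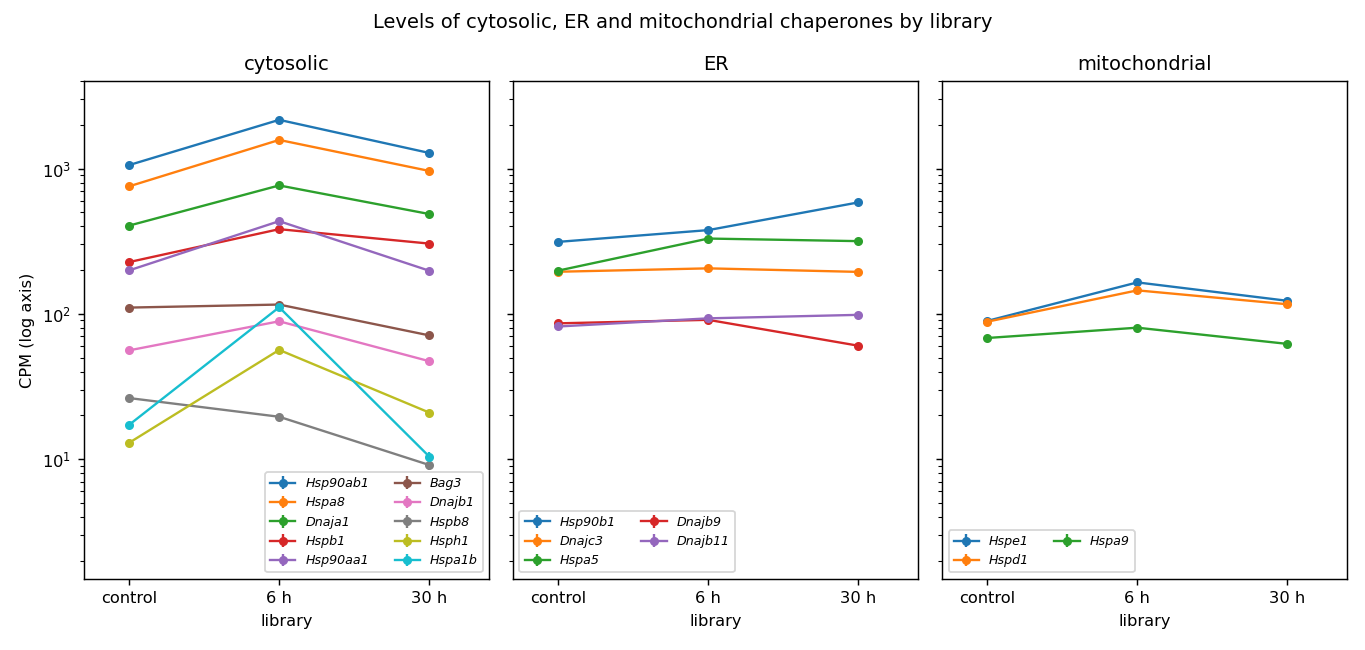
CPM on a log axis in the control, 6 h and 30 h libraries for 10 cytosolic, the 5 ER and the 3 mitochondrial members, joined by lines, with 95% counting intervals that are mostly smaller than the points. Most cytosolic lines peak at 6 h (Hspa1b at 17.2, 111 and 10.4 CPM), Hspb8 is lower at 6 h than in control and lowest at 30 h, and among the ER genes Hsp90b1 is highest at 30 h (584 CPM).

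Whether the differences were present within kinds of ECs was asked by sorting barcodes into classes by marker UMIs. The classes were general capillary cells (gCap), aerocytes (aCap, the large capillary cells over which gas is exchanged), venous, arterial and lymphatic cells. The limits of the gates were set after the marker levels had been seen. Barcodes that met the gCap gate and 1 other gate went to the other class. Vein cells held a median of 22, 19 and 20 gCap marker UMIs in control, 6 h and 30 h. The gCap gate asked for at least 10. ECs that met no gate, or more than 1 gate other than gCap, made up 21.1%, 21.4% and 21.1% in that order. The gCap class held 6757 control, 6678 6 h and 5325 30 h cells, aCap 1411, 1133 and 1381, vein 567, 406 and 403, and lymphatic 70, 51 and 54. The arterial class had under 50 cells at 6 h, so no ratio was taken from it there.

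Cytosolic chaperones were higher at 6 h in each class with a ratio. Their median log2 ratio was 0.67 in gCap, 0.59 in aCap, 0.63 in vein and 0.56 in lymphatic cells, and 24, 24, 24 and 19 of 26 were above 0. The inducible pair differed in size between classes. Hspa1a and Hspa1b together had a log2 ratio of 2.77 (2.70 to 2.85) in gCap, 2.41 (2.30 to 2.53) in aCap, 2.08 (1.91 to 2.25) in vein and 1.20 (0.46 to 1.97) in lymphatic cells. At 6 h the pair was at 186 CPM in gCap, 269.7 CPM in aCap and 257 CPM in vein, over 27.2, 50.7 and 60.7 CPM in control. Empty droplets held 53.6 CPM (39.4 to 71.3) of the pair in control and 319.8 CPM (279 to 365) at 6 h. In control gCap lay below that interval, and aCap and vein lay within it. At 6 h each of gCap, aCap and vein lay below it. The part of free RNA in these ratios was not tested. The intervals of gCap, aCap and vein do not overlap in their ratios, but they hold counting error only.

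Of the ER members, Hspa5 and Hsp90b1 differed between classes. Hspa5 had a log2 ratio at 6 h of 0.80 (0.77 to 0.84) in gCap, 0.14 (0.08 to 0.21) in aCap, 1.24 (1.14 to 1.34) in vein and 2.36 (2.08 to 2.65) in lymphatic cells. In lymphatic cells it was at 217 CPM in control, 1114 CPM at 6 h and 274 CPM at 30 h. Hsp90b1 there was at 311, 887 and 463 CPM, with 1.51 (1.25 to 1.78) at 6 h. These rest on 51 cells at 6 h, of which the one with most ER chaperone UMIs held 12.3% of them. Without it the ER sum of lymphatic cells at 6 h was 2284 CPM in place of 2522 CPM, against 816 CPM in control. The other ER members differed less between the large classes at 6 h, with Dnajc3 at 0.06 in gCap, 0.15 in aCap and 0.16 in vein. At 30 h Hsp90b1 was alike in the large classes, with log2 ratios of 0.91 in gCap, 0.93 in aCap and 0.87 in vein.

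The 6 members lower at 30 h by the fold lay below control in gCap, aCap and vein as well, though the interval of Hsf2 in vein, at -0.34 (-0.86 to 0.16), included 0. In lymphatic cells Bag3, Dnajb9 and Hsf2 lay above 0, with intervals that included 0. Hspb8 had log2 ratios of -1.55 (-1.70 to -1.41) in gCap, -1.35 in aCap and -1.49 (-2.28 to -0.76) in vein. Dnajb4, whose control level was 134 CPM in aCap and 27.1 CPM in gCap, had -1.19 (-1.30 to -1.08) in aCap, -0.72 (-0.84 to -0.59) in gCap and -0.49 (-0.76 to -0.24) in vein. Bag3 had -0.59 in gCap, -0.72 in aCap and -0.75 in vein. Hsph1, higher by the fold over all ECs, had 1.02 in gCap at 30 h. In aCap and vein no cytosolic member was then higher by the fold, with highest ratios of 0.37 and 0.45. Hspb1 differed in sign between classes, and at 30 h against control it stood at 0.51 (0.46 to 0.57) in gCap, 0.21 (0.17 to 0.24) in aCap and -0.42 (-0.54 to -0.30) in vein. Its level differed widely between classes, with 93.5 CPM in gCap and 766 CPM in aCap of the control library. The aCap class made up 12.6% of ECs in control, 10.7% at 6 h and 14.9% at 30 h.

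**Figure D3:**
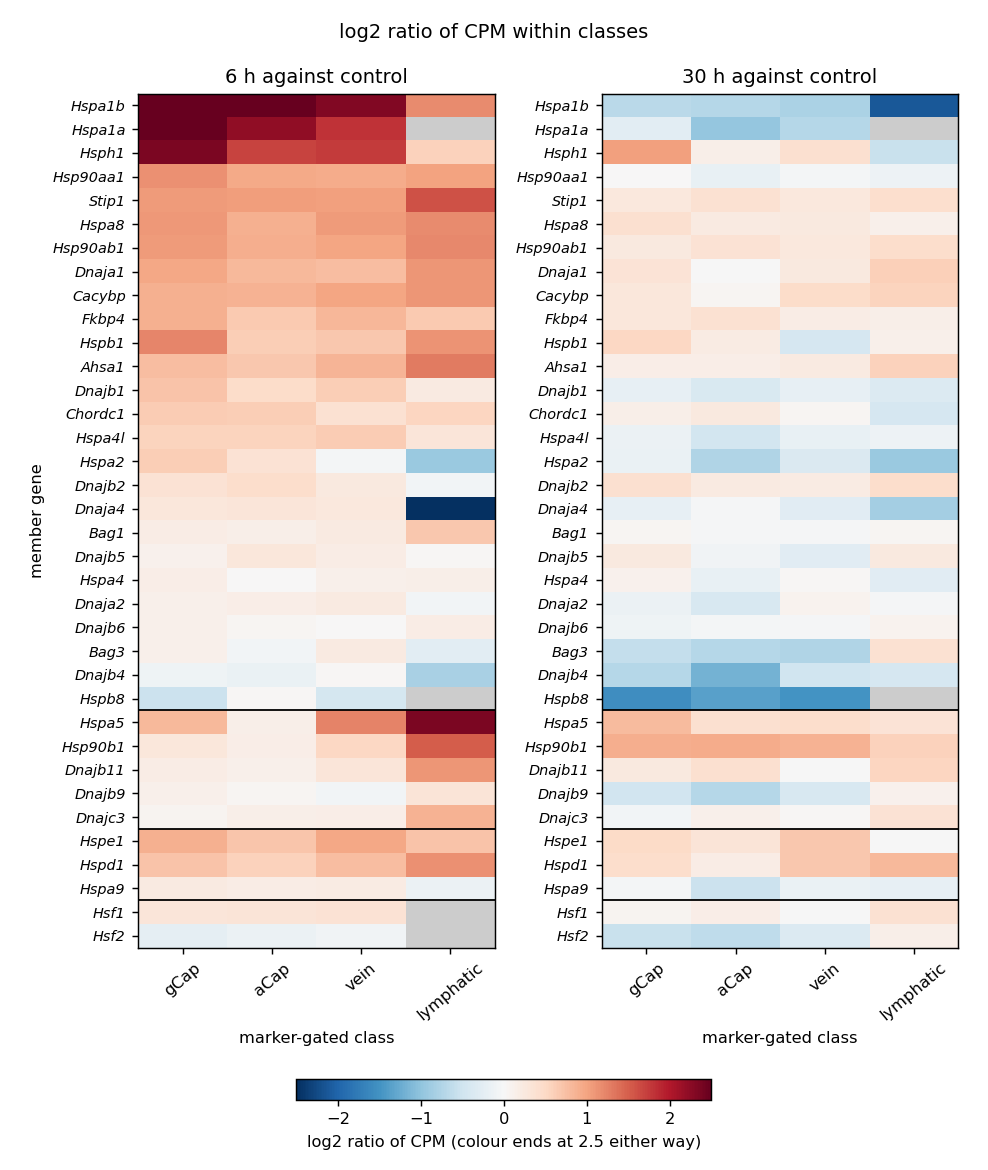
Log2 ratio of CPM of the 36 members (rows, grouped as cytosolic, ER, mitochondrial and transcription factors by black lines) in the gCap, aCap, vein and lymphatic classes (columns) at 6 h and 30 h against control, red for higher and blue for lower, with grey where both libraries together held under 20 UMIs. Hspa1b at 6 h is deep red in gCap (2.92) and paler in lymphatic cells (1.17), Hspa5 runs from 0.14 in aCap to 2.36 in lymphatic cells, and Hspb8 is blue at 30 h in gCap, aCap and vein.

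At the level of single cells, the inducible HSP70 RNA was found in a minority of cells. Each EC was thinned at random to 2000 UMIs so that depth was equal, which left out 195 control, 197 6 h and 111 30 h cells. An Hspa1a or Hspa1b UMI was then present in 5.79% (5.36 to 6.24) of control cells, 24.1% (23.3 to 24.9) at 6 h and 4.13% (3.74 to 4.56) at 30 h. At least 3 such UMIs were present in 9 control, 341 6 h and 7 30 h cells. Without thinning the shares were 17.4%, 47.4% and 14.1%. Filtered barcodes with under 2 UMIs of Pecam1 and Cdh5 together are called not endothelial here. Among them, thinned alike, the shares were 8.45% (5.09 to 13.0), 17.6% (13.3 to 22.5) and 1.95% (0.53 to 4.92), at median depths of 2504, 2632 and 2770 UMIs. They still held 1283, 1254 and 1000 CPM of the endothelial markers, and 1263 CPM of melanoma markers at 6 h. Those barcodes are cells with RNA of their own, so they do not measure free RNA. No cell type is known to lack these genes, and empty droplets held more CPM of the pair than ECs in control and at 6 h, so no share is read as a share of expressing cells.

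For the 10 heat-inducible cytosolic genes together, the whole distribution was displaced. The genes were Hspa1a, Hspa1b, Hsph1, Dnajb1, Dnaja1, Dnajb4, Bag3, Chordc1, Hspb1 and Hsp90aa1. The mean was 2.21 UMIs per thinned cell in control, 4.26 at 6 h and 2.42 at 30 h, and the median 2, 4 and 2. At least 10 UMIs were present in 0.381% of control cells, 7.35% at 6 h and 0.633% at 30 h. The tenth of cells with most UMIs held 27.6%, 26.9% and 26.4% of them, so the sum did not rest on a few cells.

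Within the 6 h library, cells with an Hspa1a or Hspa1b UMI also held more RNA of several other chaperones. The 2502 cells with one exceeded the 7884 without by a log2 ratio of 0.92 (0.85 to 0.99) for Hspb1, 0.84 (0.66 to 1.01) for Hsph1, 0.65 (0.60 to 0.70) for Dnaja1 and 0.62 (0.56 to 0.69) for Hsp90aa1. Hspa8 and Hsp90ab1 were at 0.53 and 0.56, while Hspa4 (-0.02), Bag1 (0.03) and Dnaja2 (0.04) did not differ beyond their intervals. The other compartments took part as well, with Hspa5 at 0.42 (0.35 to 0.50), Hspd1 at 0.42 (0.30 to 0.53) and Hspe1 at 0.36 (0.25 to 0.47). Summed, the ER members were at 0.18 (0.14 to 0.23) and the mitochondrial members at 0.34 (0.27 to 0.41). Hsp90b1 was at 0.13 (0.06 to 0.21), the ER DnaJ proteins Dnajb9, Dnajb11 and Dnajc3 were at 0.02 each, and Hspb8 was at -0.40 (-0.77 to -0.04). Pecam1 and Cdh5 together did not differ, at -0.01 (-0.03 to 0.02). The immediate early genes were higher in the same cells, by 0.45 (0.43 to 0.46). In the control library, where 639 cells held such a UMI, Hspb1 was at 0.88 (0.73 to 1.02) and the immediate early genes at 0.52 (0.50 to 0.54), while Hsph1 was at -0.18 (-1.11 to 0.62) and Dnaja1 at 0.14 (0.02 to 0.27). At 30 h, with 379 such cells, Hspb1 was at 0.32 (0.13 to 0.50), the immediate early genes at 0.54 (0.51 to 0.57) and Dnaja1 at 0.34 (0.20 to 0.48). The ratio of Hspb1 was thus of like size in control and at 6 h. Hspb1 and the inducible pair were both higher in aCap than in gCap cells at 6 h, so class makeup moves with these ratios, and its part was not tested.

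**Figure D4:**
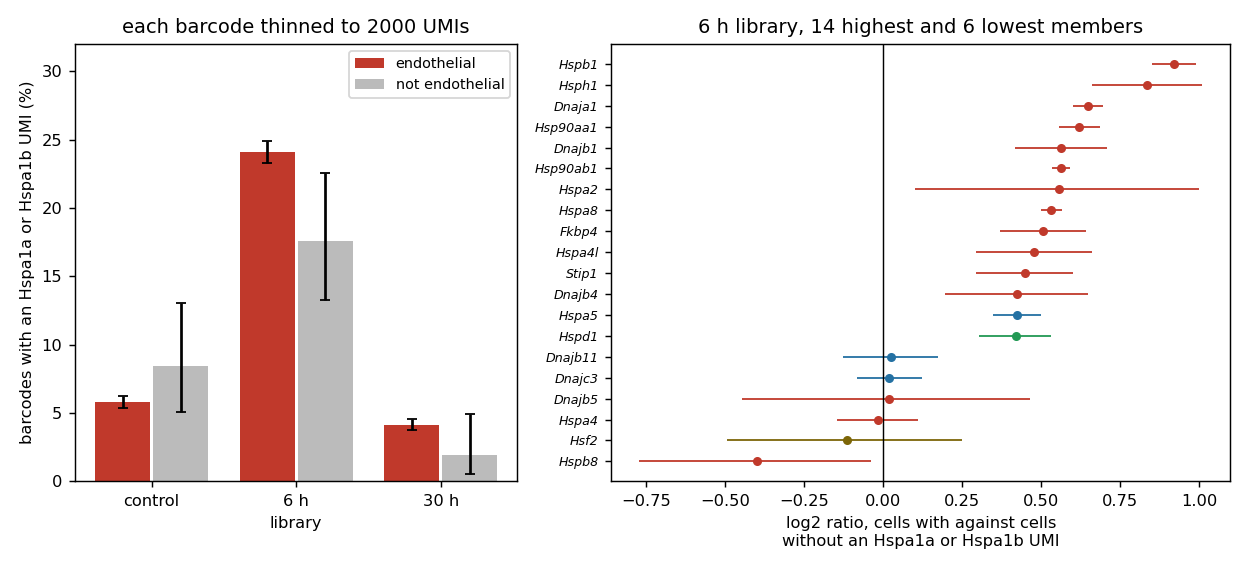
Left, the percentage of barcodes with at least 1 Hspa1a or Hspa1b UMI after thinning to 2000 UMIs, for endothelial (red) and other (grey) barcodes of each library with exact 95% intervals. Right, the log2 ratio of 20 members in 6 h cells with against those without such a UMI, coloured by compartment as cytosolic red, ER blue, mitochondrial green and transcription factor brown; Hspb1 (0.92) and Hsph1 (0.84) lead, and Hspb8 (-0.40) is lowest.

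Immediate early genes, which like heat shock genes are known to respond to the handling of tissue, moved with the libraries. Their 15 genes, among them Fos, Egr1 and Atf3, summed to 11574 CPM in control, 15506 CPM at 6 h and 9032 CPM at 30 h. All 15 lay above control at 6 h, 6 of them by the fold, beside 2.93% of all genes. Jun hardly differed, at 2721 CPM in control and 2789 CPM at 6 h. At 30 h 5 were lower by the fold and 1 higher, Nr4a1 (0.65), beside 8.3% and 6.43% of all genes. To see the chaperones at a like level of immediate early RNA, cells were divided by their thinned immediate early UMIs into those with at most 9, those with 10 to 27 and those with more, limits set at the tertiles of all cells. In the lowest stratum the immediate early sum was nearly equal, at 3054, 3167 and 3116 CPM. Hspa1a and Hspa1b together were there at 15.5 CPM in control, 107 CPM at 6 h and 12.9 CPM at 30 h. Their log2 ratio at 6 h was 2.79 (2.65 to 2.94) in the lowest, 2.34 in the middle and 2.36 in the highest stratum.

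The compartments kept their order at 6 h in every stratum. The cytosolic sum had log2 ratios of 0.77, 0.84 and 0.92, the mitochondrial sum of 0.56, 0.67 and 0.78 and the ER sum of 0.24, 0.25 and 0.40, from the lowest to the highest stratum. At 30 h the ER sum was above control in each, by 0.58, 0.53 and 0.45. Handling itself was not measured, and other effects of it than on these 15 genes were not tested.

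**Figure D5:**
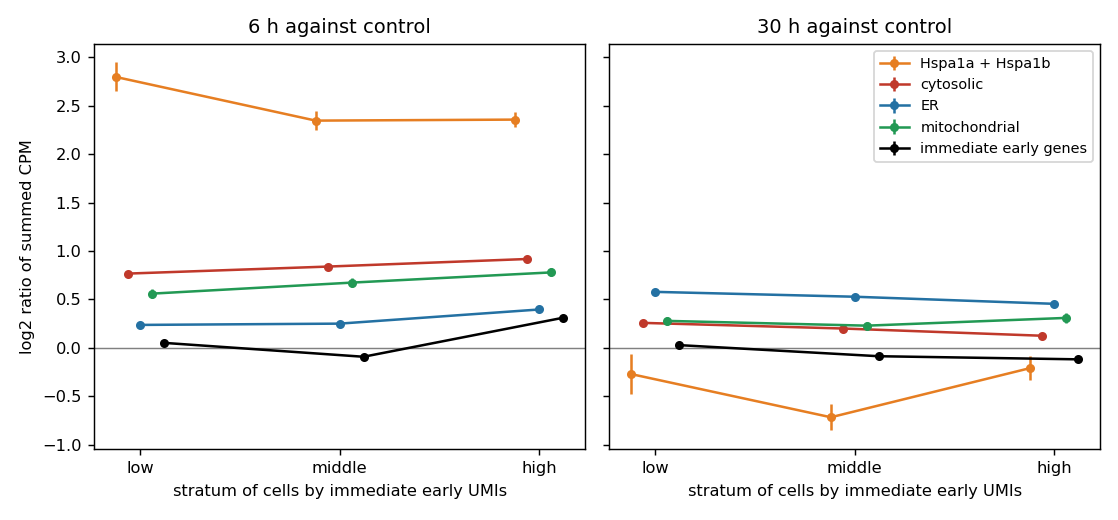
Log2 ratio of summed CPM (vertical axis) against control at 6 h and 30 h for Hspa1a with Hspa1b, the cytosolic, ER and mitochondrial members and the immediate early genes, in 3 strata of cells by immediate early UMIs (horizontal axis), with 95% counting intervals. At 6 h the inducible pair stays between 2.34 and 2.79 while the immediate early sum lies between -0.09 and 0.31.

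RNA outside ECs moved alongside. Empty droplets had 53.6 CPM of Hspa1a and Hspa1b in control, 319.8 CPM at 6 h and 29.6 CPM at 30 h. Their cytosolic sum was at 4263, 9297 and 4438 CPM. It was above that of ECs in control and at 6 h, and at 30 h its interval (4358 to 4519) included the level of ECs. Filtered barcodes that are not endothelial numbered 275, 345 and 235, and their Hspa1a and Hspa1b level was 79.5, 161 and 32.8 CPM. Barcodes with at least 4 of the 7 melanoma markers were found in the 6 h library, 30 in number, and none in the others. They held 188 (155 to 227) CPM of Hspa1a and Hspa1b, an interval that includes the 202 CPM of ECs. They held 1197 CPM of Hspd1, 1278 CPM of Hspe1 and 2749 CPM of Hsp90aa1, which is above ECs. Melanoma markers summed to 12934 CPM in them, to 428 CPM in empty droplets and to 14.4 CPM in ECs of that library. How much free RNA adds to each EC value was not tested.

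Beyond the members, other genes of the same pathways were counted from lists drawn up by function. The TRiC chaperonin, the cytosolic folding chamber for actin and tubulin, had all 8 subunits above 0 at 6 h with a median log2 ratio of 0.35, but only Cct3 (0.58) passed the fold. At 30 h its median against control was 0.17. Of 22 other cytosolic co-chaperones, 2 were higher at 6 h, St13 (0.80) and Ptges3 (0.52), both of which serve HSP90 complexes. Cdc37 (0.19), Ppid (0.30) and Sugt1 (0.02), which serve them as well, stayed under the fold. Lower was 1, Fkbp5 (-0.87), an immunophilin induced by glucocorticoids. At 30 h Fkbp5 stood at -1.49, and Hspa12b, an HSP70 relative of endothelium, at 0.72. The list had 2 higher and 2 lower members at 30 h, with a median of 0.01. Beside 2.93% of all genes higher and 2.18% lower at 6 h, and 6.43% and 8.3% at 30 h, these counts of 22 are of the order of the background and are no result about the list.

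Other ER folding and stress genes were split at 30 h. Of 27 that passed the filter, 1 was higher by the fold at 6 h, Creld2 (0.56), beside 2.93% of all genes, so that count is no result about the list. At 30 h 8 were higher by the fold, beside 6.43% of all genes, 1 was lower, beside 8.3%, and 16 of the 27 were above 0. The largest at 30 h were Calr, the lectin chaperone calreticulin (154 CPM in control, 189 CPM at 6 h and 395 CPM at 30 h, log2 ratio 1.36), the disulfide isomerase Pdia6 (1.18) and Sdf2l1 (0.88). Stress sensors did not join them: Ern1, which encodes IRE1, was lower at 30 h (-0.75), and Atf6 stood at -0.42. The median of the 27 was 0.12 at 6 h and 0.15 at 30 h. None of 11 other mitochondrial protein quality genes passed the fold at 6 h or at 30 h against control, with medians of 0.01 and 0.02. Of 6 further genes of the heat shock response, 1 was higher at 6 h, Ier5 (0.61), a regulator of HSF1, and 0 passed at 30 h. With lists this short and 2.93% of all genes higher and 2.18% lower at 6 h, and 6.43% and 8.3% at 30 h, these counts are no result about either list.

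Set beside the promoter letters, 11 of the 31 members with a window held a 2-unit heat shock element, or 35.5%, where 12.1% of genes passing the filter and 14.5% of all genes did. They were Dnaja1, Dnaja4, Dnajb4, Dnajb6, Fkbp4, Hspa1a, Hspa1b, Hspb1, Hspd1, Hspe1 and Hsph1. Not all are separate promoters: Hspa1a and Hspa1b differed at 3 of 250 bases, and Hspd1 and Hspe1 share 1 stretch. At 6 h 8 of the 11 were higher by the fold, with a median log2 ratio of 0.85, and of the 20 without a match 8 were higher, with a median of 0.24. Of all genes passing the filter 2.93% were higher. Whether a match goes with the difference was not tested. A 3-unit match was found for 3 members, Dnajb6, Hspd1 and Hspe1, and for 0.497% of genes passing the filter, and Dnajb6 did not pass the fold (0.13). The ER stress element was found for Hspa5, Hsp90b1 and Dnajc3, and for 0.162% of genes passing the filter. At 30 h those 3 stood at 0.67, 0.90 and -0.00, so the match did not go with one level. Dnajb1, Stip1 and Cacybp were higher at 6 h with no match in this window, which covers 250 bases only.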

How the data were processed

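RNA of sorted lung cells was tagged in droplets and sequenced as 3 libraries, grouped by the treatment in the labels. The authors deposited unfiltered UMI counts per gene and barcode, and the submitters' processing notes name Cell Ranger 7.2.0, Seurat 4.4.0 and the build mm10 (the study's methods name an earlier Cell Ranger). Counts of feature IDs with the same symbol were summed (32285 IDs). The total was 124085451 to 140601123 UMIs per library.

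UMIs were summed over the ECs of a library and scaled to CPM. Ratios had no pseudocount and a floor of 3 UMIs for a count of 0. Poisson, conditional binomial and binomial (Clopper-Pearson) intervals were exact, at 95%, and cover counting error only. No test was made. Doublets were kept in the main setting. Ratio, interval and thinning code was tested on simulated data. The members and lists were chosen with earlier results of these data known. All members were to be given, with full values for 8 of them and the 12 largest ratios per comparison, and up to 3 genes at each end of the other lists. Where a compartment's gene is named outside this, it was chosen after its values were seen. Gene positions are from GENCODE M21 and promoters from RefSeq (GRCm38.p6). Tools were numpy 2.4.6, pandas 2.3.3, scipy 1.17.1, scanpy 1.11.5 and biopython 1.88. Alternatives changed the cell filters, doublets, scaling, level filter, classes and depth.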

Additional observations from a re-analysis of the deposited data

Results flagged for a closer look

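Empty droplets are no part of the comparisons between ECs, and chaperone sums in them were above the control library at 6 h. At 6 h the log2 ratio against control was 2.58 for Hspa1a with Hspa1b, 1.12 for the cytosolic sum, 0.97 for the mitochondrial sum and 0.35 for the ER sum. At 30 h it was 0.28 for the ER sum, 0.13 (-0.06 to 0.32) for the mitochondrial sum and 0.058 for the cytosolic sum. Hspa1a with Hspa1b was below control at 30 h, at -0.86 (-1.40 to -0.30). The endothelial markers in the same droplets differed by -0.07 at 6 h and 0.18 at 30 h.

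Against control, the classes went opposite ways for 2 members with both counting intervals off 0 and at least 1 of the ratios past the fold of 0.5, a difference that was not tested. Hspa4 and Dnajc3 at 30 h also differed in sign between gCap and aCap, with ratios under the fold. Hspb1 at 30 h against control was 0.51 in gCap and -0.42 in vein, a gap of 0.93. Dnaja4 at 6 h against control was 0.30 in aCap and -2.81 (-5.95 to -0.77) in lymphatic cells, a gap of 3.11 that rests on 20 UMIs in control and 2 UMIs at 6 h in the lymphatic class. The same pattern at 30 h against 6 h, which shares both libraries with these comparisons, was seen in Hspa5 (0.25 in aCap and -0.80 in vein), Hsp90b1 (0.63 in gCap and -0.94 in lymphatic cells) and Dnajb11 (0.27 in aCap and -0.56 in lymphatic cells).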

How the results depend on the processing

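Over 23 alternative settings, 2 of them chosen after seeing the data (without barcodes of no single class, and without barcodes holding markers of other cells, the epithelial list left out), 255 of 276 recomputed counts, medians, sums and shares kept their size by the limits used. A median was kept if it stayed within the interval of the main median, for ER and mitochondrial members the full range over genes. At 6 h against control the interval was 0.08 to 0.73 for ER and 0.22 to 0.92 for cytosolic members. Limits this wide are hard to leave, so the number kept says little about the medians. With a log2 fold of 1 in place of 0.5, 7 members were higher at 6 h against control, 0 higher and 1 lower at 30 h against control, and 0 higher and 5 lower at 30 h against 6 h. In gCap cells alone, 1 member was lower at 6 h (Hspb8). The mitochondrial median at 30 h became 0.47 against control and -0.30 against 6 h when centred on all genes, and -0.28 against 6 h in gCap cells. Leaving out the gene with most UMIs gave sums at 6 h, 30 h and 30 h against 6 h of 0.81, 0.15 and -0.66 (cytosolic, without Hsp90ab1), 0.36, 0.26 and -0.10 (ER, without Hsp90b1, the last reversed) and 0.53, 0.19 and -0.34 (mitochondrial, without Hspe1), by construction. The share of cells with an Hspa1a or Hspa1b UMI without thinning was 17.4%, 47.4% and 14.1%, since deeper cells hold more UMIs. The count higher at 6 h ran from 18 to 19 over the other settings. Of single members, Dnajb9 left the fold at 30 h against control under 5 settings, and under 1 setting each so did Hspa1b and Hsf2 (30 h against control), Hspa2 and Hspa4l (6 h against control), and Ahsa1, Fkbp4 and Dnajb4 (30 h against 6 h). No called member changed sign. Scrublet's own threshold marked 0, 0 and 68 barcodes, so doublets were taken by rank (9.20%, 8.74% and 7.61%). No paired analysis was possible because each group has 1 library. The number of cells limits the arterial and lymphatic classes.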

Other observations

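The arterial class is given as values, since its 46 cells at 6 h allowed no ratio there. Its cells held a median of 14, 19.5 and 18 gCap marker UMIs beside 12, 11 and 13 artery marker UMIs, in control, 6 h and 30 h. In the same order 580, 773 and 875 ECs lay within 3 UMIs of its gate, so its makeup is uncertain. Hspa1a with Hspa1b was at 85.9 CPM in the 55 control cells, 295 CPM at 6 h and 54.2 CPM in the 161 cells of the 30 h library. Hsp90b1 was at 369 CPM, 429.7 CPM and 717 CPM in the same order, and Hspb8 at 22.3, 20.8 and 10.0 CPM. The ER sum was at 915, 1179 and 1421.5 CPM.

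In the control and 30 h libraries, where no melanoma-marked barcode was found, barcodes that are not endothelial were compared as well. Hspe1 was at 99.6 CPM in control and 193 CPM at 30 h, a log2 ratio of 0.96 (0.63 to 1.29), and Hsp90b1 at 337 and 440.4 CPM, a log2 ratio of 0.39 (0.20 to 0.58). These sums mix cell types, and their makeup was not compared.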
